A study of Homo sapiens with 6 samples.

Results

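The miR-181 family was examined in HuccT1 cells, an established human cholangiocarcinoma (CCA) cell line, through the probes of 6 mature miRNAs among the 2555 human miRNAs on the arrays. The members were the 5p arms hsa-miR-181a-5p, hsa-miR-181b-5p, hsa-miR-181c-5p and hsa-miR-181d-5p and the 3p arms hsa-miR-181a-3p and hsa-miR-181a-2-3p, named below without the species prefix. The family was chosen by measured values, since the log2 changes of miR-181a-5p and miR-181b-5p with TGF-β were among the largest rises in these data, so their changes are given as descriptions, without a test, and the other 4 members, which stand in the same comparison, are treated alike. Each probe was found by its name in the scanner files. The data came from 6 microRNA arrays of 1 colour (Cy5), 3 of control cells at 0 ng/ml TGF-β and 3 of cells at 10 ng/ml TGF-β, each after 72 h. TGF-β is a cytokine that induces EMT, the change of epithelial cells towards a mesenchymal form. All arrays carry RNA of the same cell line, which is a single cancer-derived line, and the labels do not say whether replicates were separate cultures, so that errors measure only the spread between these arrays, which may be technical.

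MiRNAs are cut from hairpin precursors, and either side of the stem, the 5p or the 3p arm, can be loaded into the silencing complex. The bases near the 5′ end, the seed, set most of the pairing with target mRNAs. The miR-181 family is known for its part in lymphocyte development and in tuning T cell receptor signalling, and its members have been described as responsive to TGF-β in epithelial and liver-derived cells.

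The mature sequences show how closely the members are related and why the 5p arms are treated as a family. They were taken from RefSeq (GRCh38.p14), which held all 6 members, and capitals mark the seed, bases 2 to 8.
miR-181a-5p: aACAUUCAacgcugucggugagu
miR-181b-5p: aACAUUCAuugcugucggugggu
miR-181c-5p: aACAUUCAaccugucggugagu
miR-181d-5p: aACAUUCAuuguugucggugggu
miR-181a-3p: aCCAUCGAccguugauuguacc
miR-181a-2-3p: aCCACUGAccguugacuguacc

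All 4 of the 5p arms share the seed ACAUUCA. With positions counted from 1 at the 5′ end, miR-181b-5p differs from miR-181a-5p by A9U, C10U and A21G, all outside the seed. MiR-181c-5p differs from miR-181a-5p only by the missing base G11del, and miR-181d-5p differs from miR-181b-5p only by C12U. The 3p arms of the 2 miR-181a hairpins differ from each other by U5C, C6U and U16C, of which the first 2 lie in the seed, so that each 3p arm has a seed of its own. Outside the family, 1 human miRNA of the RefSeq table has the seed of the 5p arms, miR-4262, with the sequence gACAUUCAgacuaccug.

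The 5p arms come from 3 places in the genome, and miR-181a-5p and miR-181b-5p each come from 2 of them. On chromosome 1, miR-181a-5p lies at chr1:198859108-198859130 (locus MIR181A1) and miR-181b-5p at chr1:198858925-198858947 (MIR181B1), both on the minus strand, within the span of the lncRNA gene MIR181A1HG and with 160 bases between them. On chromosome 9, miR-181a-5p lies at chr9:124692480-124692502 (MIR181A2) and miR-181b-5p at chr9:124693725-124693747 (MIR181B2), on the plus strand and with 1222 bases between them. That pair lies within the spans of the lncRNA gene MIR181A2HG and the protein-coding gene NR6A1. The mature miR-181a-5p and miR-181b-5p of the 2 places are identical, so that the arrays cannot tell them apart. The 3p arm miR-181a-3p (chr1:198859069-198859090) belongs to the hairpin on chromosome 1 and miR-181a-2-3p (chr9:124692518-124692539) to that on chromosome 9. On chromosome 19, miR-181c-5p (chr19:13874725-13874746) and miR-181d-5p (chr19:13874910-13874932) are encoded on the plus strand with 163 bases between them, within the span of NANOS3. Whether these positions are exonic or intronic, and whether the overlapping genes lie on the same strand, was not examined here.

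Detection was judged against the 229 spots of each array that are named as blank. Detection meant a brightness that exceeded the blank mean by over 2 blank SD, and it was reached by 329 to 464 probes in the controls and 327 to 434 with TGF-β. Blank spots had a mean brightness of 29.5 to 54.8 in the controls and 42.5 to 82.3 with TGF-β. A miRNA was called expressed where every array of a group, control or TGF-β, detected it, which gave 323. All 5 epithelial markers of the list made for these cells, the members of the miR-200 family, were among them. The hepatocyte miRNA miR-122-5p, the red cell miRNAs miR-451a and miR-144-3p, the endothelial miR-126-3p and the fibroblast and smooth muscle miRNAs miR-143-3p, miR-145-5p, miR-199a-3p and miR-214-3p were not detected on any array. The myeloid miR-223-3p and the neural miR-9-5p were each detected on 1 array, and miR-142-3p, miR-124-3p and the muscle miRNA miR-133a-3p on none. The muscle miRNA miR-1-3p was not found under that name, and other names were not matched. The sample labels do not name a chip, and it was inferred here from the shared start of the names of the scans. By that reading, chip 1 carried the controls together with TGF-β array 1, while the other 2 TGF-β arrays were on chip 2. The groups are then not balanced over the chips.

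Of the 6 members, 2 were expressed in HuccT1 cells, miR-181a-5p and miR-181b-5p, and both were detected on all 6 arrays. The probe for miR-181a-5p lay 33.6, 15.1 and 34.4 SD above the blank spots in control replicates 1, 2 and 3 and 32.0, 50.2 and 29.8 SD above them in TGF-β replicates 1, 2 and 3. No blank spot was as bright as this probe on any array. The probe for miR-181b-5p was closer to the blank spots, at 6.69, 3.64 and 5.59 SD in the controls and 6.86, 11.1 and 4.95 SD with TGF-β. Its lowest value, on control array 2, was exceeded by 1 of the 229 blank spots.

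**Figure D1:**
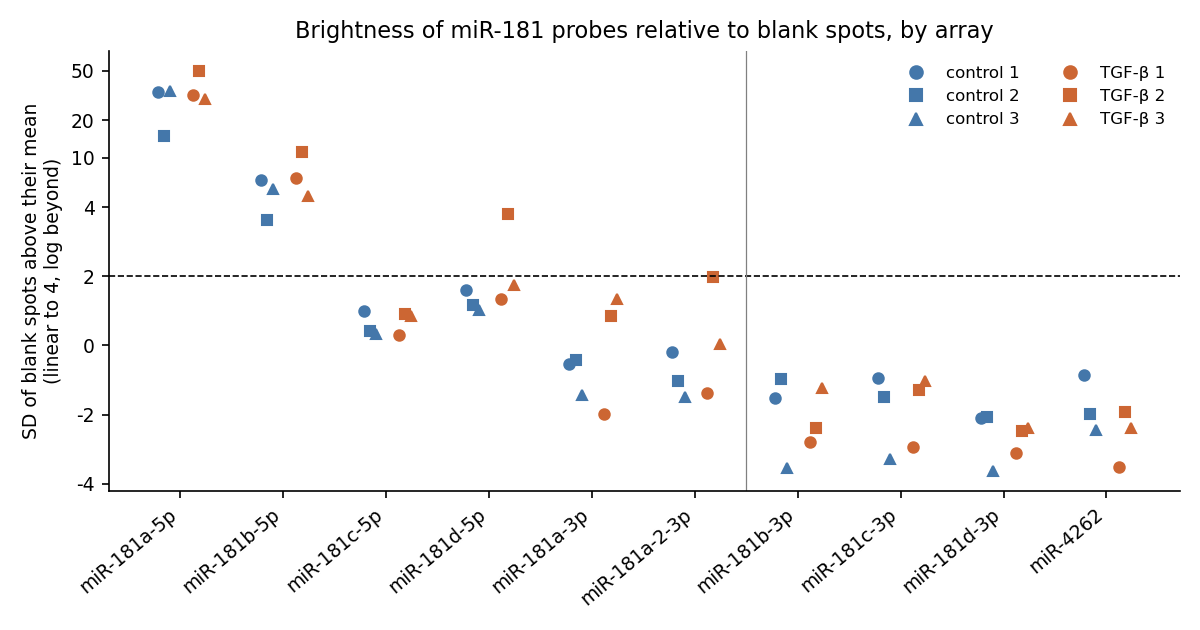
Brightness of the probes for the 6 members (left of the grey line), for 3 other miR-181 arms and for miR-4262, as the distance from the blank mean in blank SD (linear to 4, logarithmic beyond), with 1 point per array. The dashed line marks the 2 SD limit of detection; miR-181a-5p and miR-181b-5p lie above it on all 6 arrays, and miR-181d-5p on TGF-β array 2.

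The 5p arms from chromosome 19 were mostly at the level of blank spots. MiR-181c-5p was not detected on any array, at 0.99, 0.41 and 0.34 SD in the controls and 0.29, 0.90 and 0.86 SD with TGF-β. Between 34 and 93 of the 229 blank spots of an array were brighter than its probe. Its sequence is that of miR-181a-5p without 1 base, and its probe stayed at this level on the same arrays on which the miR-181a-5p probe was at 15.1 to 50.2 SD. MiR-181d-5p lay at 1.61, 1.18 and 1.04 SD in the controls and at 1.34, 3.80 and 1.76 SD with TGF-β, and only TGF-β array 2 passed the limit. In normalized signal this was 1.47, 2.54 and 1.08 against 2.46, 3.96 and 3.40, so that the groups overlapped, and no fold change is given because 5 of the 6 values were below detection. In the authors' normalized values, which leave miRNAs they did not list empty, miR-181d-5p had 4.0 in control replicate 1 and 8.8 and 4.7 in TGF-β replicates 2 and 3.

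The 3p arms of miR-181a were not detected on any array. MiR-181a-3p lay at -0.55, -0.41 and -1.44 SD in the controls and at -1.99, 0.84 and 1.35 SD with TGF-β, and thus below the mean of the blank spots on 4 of the 6 arrays. MiR-181a-2-3p lay at -0.19, -1.04 and -1.50 SD in the controls and at -1.38, 1.99 and 0.037 SD with TGF-β. Its value on TGF-β array 2 was just under the limit, and it was the only array on which the authors' values list this arm, at 4.6. The other 3p arms on the arrays, miR-181b-3p, miR-181c-3p and miR-181d-3p, were below the mean of the blank spots on every array, between -3.62 and -0.94 SD, as was miR-4262, between -3.52 and -0.86 SD. At this signal, levels of these arms were not detectable, and no change of theirs with TGF-β was measured.

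For the expressed members, signals were taken above the mean of the blank spots and brought, by 1 factor per array, to a median of 25 over the 292 probes that passed detection throughout. In this normalized signal, miR-181a-5p had values of 30.7, 32.4 and 35.8 in control replicates 1, 2 and 3 and of 58.9, 52.4 and 57.3 in TGF-β replicates 1, 2 and 3. Its mean was 33.0 ± 2.60 (SD, n = 3) in the controls and 56.2 ± 3.38 (SD, n = 3) with TGF-β. The lowest TGF-β array was above the highest control array, and the means stood in a ratio of 1.70. The log2 change (TGF-β minus control) was 0.77 with a standard error of 0.18 from the limma fit across all expressed miRNAs. The replicates of miR-181a-5p were close together: the pooled SD of its log2 signals within groups was 0.10, against a median of 0.29 over the 323 expressed miRNAs, of which 15 had a smaller one.

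MiR-181b-5p had 6.12, 7.83 and 5.83 in the controls and 12.6, 11.5 and 9.53 with TGF-β. Its mean went from 6.59 ± 1.08 (SD, n = 3) to 11.2 ± 1.57 (SD, n = 3). Again no control array reached a TGF-β array, and control array 2 and TGF-β array 3 were the nearest. The means stood in a ratio of 1.70, and the log2 change was 0.77 with a standard error of 0.21. Its pooled SD of 0.22 on the log2 scale was larger than that of miR-181a-5p. In RNA of a whole culture, a higher level in each cell and a larger share of cells with the miRNA cannot be told apart.

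**Figure D2:**
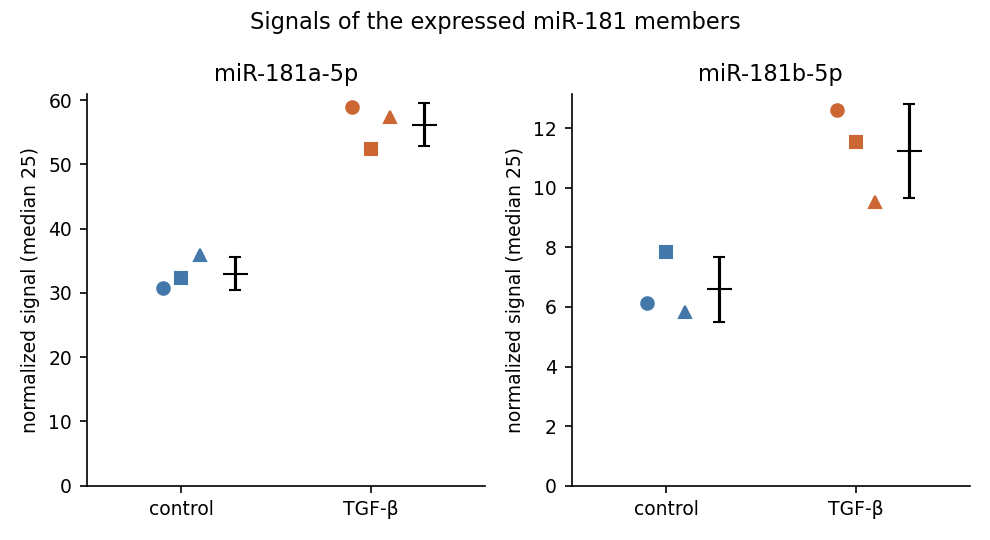
Normalized signal (linear axis from 0, median of the commonly detected probes set to 25) of miR-181a-5p and miR-181b-5p on 3 control and 3 TGF-β arrays (circle, square and triangle for replicates 1, 2 and 3), with the mean ± SD beside the points. For both miRNAs the 3 TGF-β arrays lie above the 3 control arrays, from 52.4 to 58.9 against 30.7 to 35.8 for miR-181a-5p and from 9.53 to 12.6 against 5.83 to 7.83 for miR-181b-5p.

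As background to these values, 15 of the 323 expressed miRNAs (4.64%) had a ratio of means above 1.5, the study's threshold for a rise, and the TGF-β arrays lay above all control arrays for 23 (7.12%). Both expressed members were in each of these groups, which is what they were chosen for. By limma, 0 of the 323 (0%) were past the adjusted p threshold of 0.05, 21 had an unadjusted p under 0.05, and the methods' t-test called 1 after Benjamini-Hochberg adjustment, miR-4521, named here after its value was seen. By log2 change, miR-181b-5p ranked 6th and miR-181a-5p 7th of the 323. Without TGF-β array 1 these ranks were 19 and 16, without control array 1 they were 12 and 13, and under the normexp and local background corrections they were 66 and 64, and 39 and 32. Among the 22 rises without overlap of miRNAs that all 6 arrays detected, they were the 3rd and the 4th. The miRNA next above them was miR-193b-3p, with a log2 change of 0.80 (standard error 0.23), and the next below was miR-4521, with 0.63 (standard error 0.17). MiR-146a-5p, at 0.60, came after that.

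**Figure D3:**
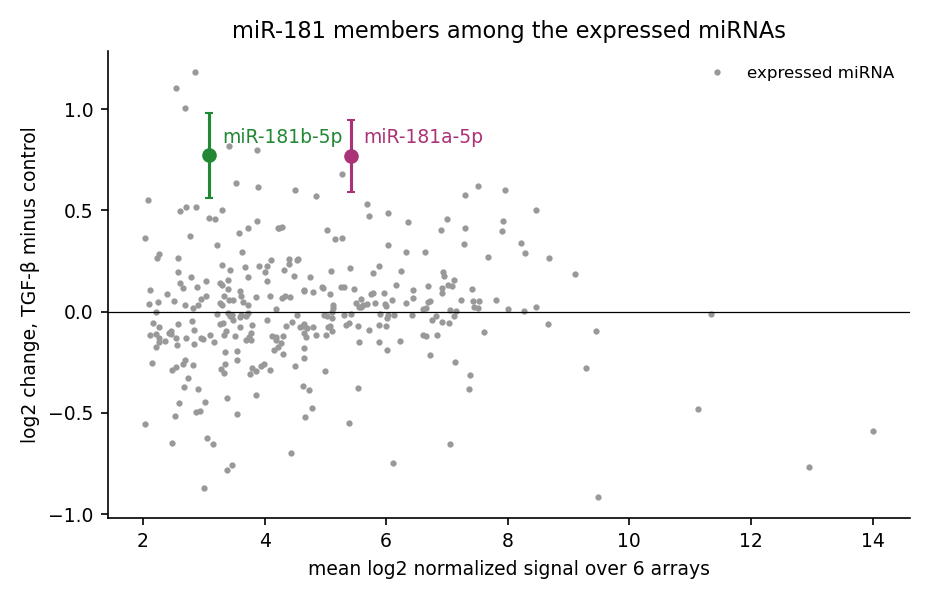
Log2 change (TGF-β minus control) against the mean log2 normalized signal over 6 arrays for the 323 expressed miRNAs (grey points), with miR-181a-5p and miR-181b-5p in colour and their standard errors as bars. Both have a log2 change of 0.77, at different brightness.

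The distance between the 2 miRNAs was also taken within each array. The log2 signal of the miR-181a-5p probe exceeded that of the miR-181b-5p probe by 2.33, 2.05 and 2.62 in the controls and by 2.22, 2.18 and 2.59 with TGF-β. The mean difference was 2.33 ± 0.29 (SD, n = 3) and 2.33 ± 0.22 (SD, n = 3), and the group means differed by -0.0016, while single arrays differed by up to 0.57 within the controls. The equal means restate the equal log2 changes of both members. The 2 sequences differ by 3 bases, and whether each probe also binds the other miRNA was not tested. The 2 rises are therefore not shown to be separate measurements. Since probes differ in efficiency, the size of the difference is not a ratio of abundance, and only its change between arrays can be read. No scaling enters into it, because any factor of an array falls out.

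The place of each member in the order of brightness on its own array, which is no measure of relative abundance, also needs no scaling. Of the 292 probes detected on all arrays, 128, 125 and 119 were brighter than miR-181a-5p in the controls and 88, 94 and 86 with TGF-β. For miR-181b-5p these were 282, 260 and 272 in the controls and 211, 223 and 236 with TGF-β. Both members thus stood further up in every TGF-β array than in any control array. Since they were chosen for their rise on these arrays, this restates the rise and does not test it. How many of the other probes were placed in this way was not counted.

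The size of the change depended on how the arrays were scaled. In the authors' own normalized values, miR-181a-5p had 81.1, 47.2 and 64.9 in the controls and 78.8, 115.9 and 78.5 with TGF-β. The means were 64.4 ± 17.0 (SD, n = 3) and 91.1 ± 21.5 (SD, n = 3). Here control array 1 lay above TGF-β arrays 1 and 3, and the means stood in a ratio of 1.41. In the same values miR-181b-5p had 16.2, 11.6 and 10.5 in the controls and 16.9, 25.6 and 13.1 with TGF-β, with overlapping groups and a ratio of 1.45. In these values the median is set over the miRNAs listed for an array, from 346 to 507 of them, and the median log2 change of their 349 expressed miRNAs was -0.27. In them 5 of the 349 (1.43%) had a ratio above 1.5 and 1 (0.287%) had groups that did not overlap with TGF-β higher. With own detected probes, a different set on each array, as the base of the median, the log2 change was 0.55 for miR-181a-5p and 0.56 for miR-181b-5p, and the groups of both overlapped. There 1.86% of the 323 miRNAs had a ratio above 1.5, miR-181b-5p (1.51) but not miR-181a-5p (1.46) among them, and 0.31% had TGF-β above all controls. With the 75th percentile and with quantile normalization both members were past 1.5 and without overlap, against 2.17% and 3.41% of the 323 for the ratio and 3.72% and 6.19% for the overlap. With no scaling, both were past 1.5, as were 68.4% of the 323, and miR-181a-5p but not miR-181b-5p was without overlap, against 5.57%.

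The changes were also read against the median of the expressed miRNAs. With the scaling on the commonly detected probes, the median log2 change was 0.013, and the members lay 0.76 above it. Over 5 other scalings (the authors' values, each array's own detected probes, the 75th percentile, quantile normalization and no scaling), the log2 changes themselves ran from 0.51 to 1.41 for both. The same changes minus the median of all expressed miRNAs ran only from 0.75 to 0.78 for miR-181a-5p and from 0.76 to 0.77 for miR-181b-5p. For the scalings that apply 1 factor to an array this holds by construction, since the factor moves the median and the members alike. Within chip 1, where TGF-β array 1 is set against the 3 controls, the log2 change was 0.84 for miR-181a-5p and 0.95 for miR-181b-5p. The single TGF-β array was above the controls for both, and also for 114 of the 323 (35.3%), so that this says little of the members. With chip as a block the values were the same.

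**Figure D4:**
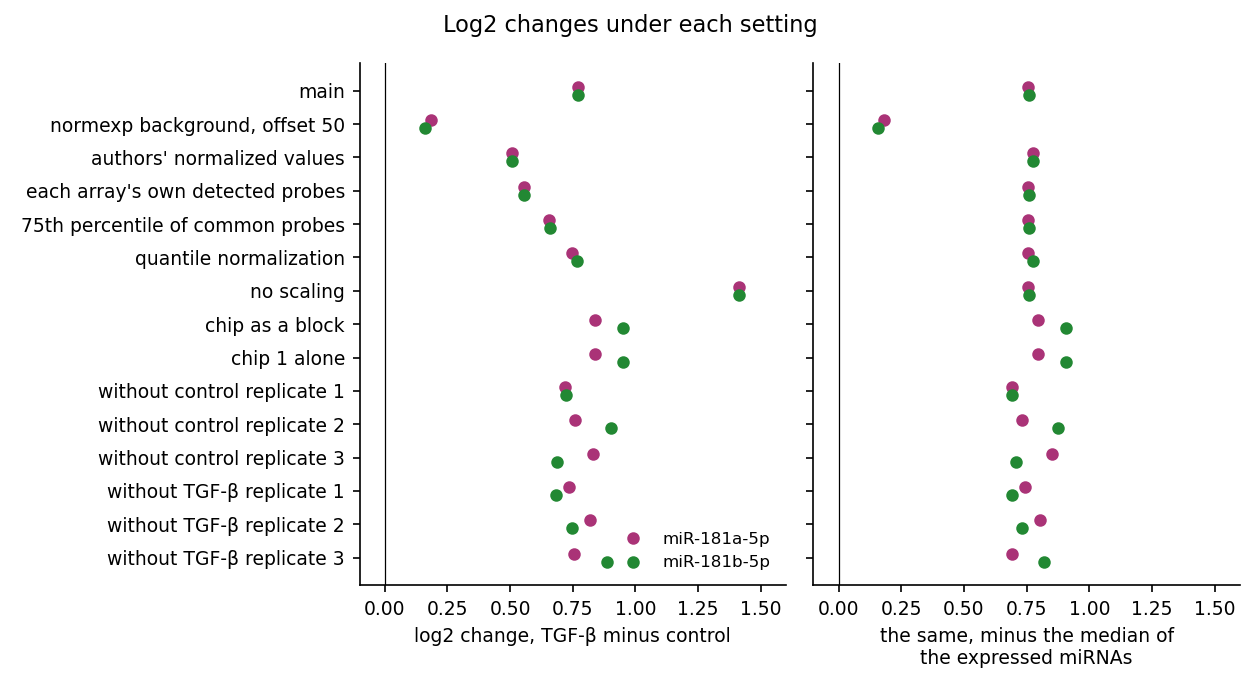
Log2 change (TGF-β minus control) of miR-181a-5p and miR-181b-5p under the processing of the text (main) and under other settings, as it is (left) and minus the median log2 change of all expressed miRNAs (right). The scalings from the authors' values to no scaling spread from 0.51 to 1.41 on the left and gather between 0.75 and 0.78 on the right, while normexp gives 0.19 and 0.16 on the left; the subtraction of local background, with 2.74 and 2.48, is not drawn.

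The miRNAs with the pattern most like that of miR-181a-5p were taken by the Pearson correlation of log2 signals over the 6 arrays, among the other 291 miRNAs detected on all of them. They were miR-28-5p (r = 0.97), miR-125b-5p (0.97), miR-4521 (0.97), miR-23a-3p (0.93) and miR-146a-5p (0.89). For miR-181b-5p they were miR-23a-3p (0.98), miR-222-3p (0.98), miR-193b-3p (0.97), the joint probe for miR-365a-3p and miR-365b-3p (0.95) and miR-7851-3p (0.95). MiR-23a-3p was the only one shared by the 2 lists. Their log2 changes lay between 0.41 and 1.11. All 9 had TGF-β arrays above every control array, against 7.12% of the expressed miRNAs, which follows from their choice by likeness to members without overlap. The correlation of miR-181a-5p with miR-181b-5p was 0.87, which ranked miR-181b-5p 8th for miR-181a-5p and miR-181a-5p 12th for miR-181b-5p. These points are 6 arrays in 2 groups and share the scaling of each array, so that the correlations describe mainly the step between the groups.

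**Figure D5:**
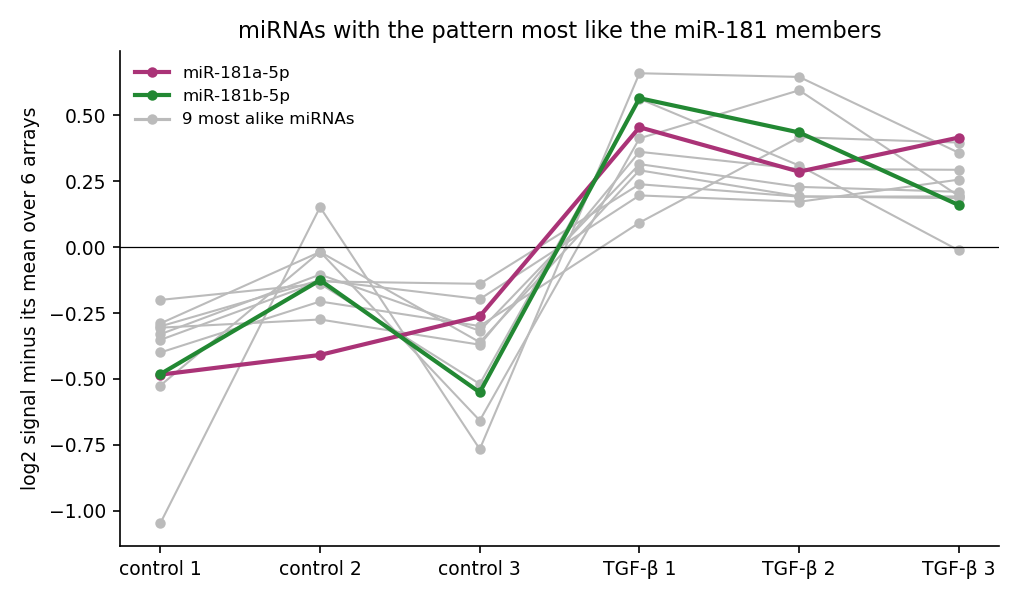
Log2 signal minus its mean over the 6 arrays for miR-181a-5p, miR-181b-5p and the 9 miRNAs most like either of them (grey), with lines that only join the values of 1 miRNA. In all of them the 3 TGF-β arrays lie above the 3 control arrays; miR-181a-5p had its lowest value on control array 1, and miR-181b-5p on control array 3.

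Other miRNAs that are commonly described as raised by TGF-β were set beside the members. Of a list of 12, 7 were expressed. None of the 7 had a ratio above 1.5, against 4.64% of the 323 expressed miRNAs, and none passed the adjusted p in limma, against 0% of the 323. Their median log2 change was 0.12, against 0.013 over all expressed miRNAs. For 1 of the 7 the groups did not overlap, TGF-β higher, against 7.12% of the 323. The sign of the median depended on the scaling. It was -0.14 in the authors' values, where that of all expressed miRNAs was -0.27. With no scaling it was 0.77, where that of all was 0.66. There 5 of the 7 had a ratio above 1.5, near the share of 68.4% over the 323. The highest were miR-23a-3p, from 299.0 to 422.3 in mean normalized signal (log2 change 0.50, groups without overlap), and its cluster partner miR-24-3p, from 140.9 to 175.8 (0.33, overlapping). The lowest were miR-192-5p (-0.10) and miR-21-5p (-0.095), an abundant miRNA of cancer cells that went from 732.5 to 705.2. MiR-143-3p, miR-145-5p and miR-199a-5p of this list were not detected on any array.

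Of a list of 15 miRNAs commonly described as lowered by TGF-β, 14 were found by name and all 14 were expressed. The remaining one, miR-203a-3p, was not found under that name. Other names were not matched, so that its absence from the arrays is not shown. None of the 14 had a ratio below 0.67, against 9 of the 323 (2.79%), and none passed the adjusted p in limma. The log2 change was above 0 for 8 and below 0 for 6, and its median was 0.046. Over all 323, 48.9% of the changes were below 0. In the authors' values 2 of the 14 were below 0.67, miR-141-3p and miR-30e-5p, against 42 of 349 (12%). There 11 of the 14 changes were below 0, against 83.1% of the 349, and their median was -0.27, as was that of all expressed miRNAs. The highest were miR-200c-3p, an epithelial miRNA that targets the ZEB transcription factors (from 210.4 to 276.4, log2 change 0.40), and miR-29a-3p, which targets collagen mRNAs (from 263.7 to 337.6, 0.34). The groups did not overlap, with TGF-β higher, for 3 of the 14, these and miR-200b-3p, against 7.12% of all expressed miRNAs, and for none of the 14 in the authors' values. The lowest were miR-141-3p, of the miR-200 family (-0.65, overlapping groups), and miR-30e-5p (-0.41, overlapping groups).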

How the data were processed

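HuccT1 cells were measured on 3D-Gene Human miRNA Oligo chips, 3 control and 3 TGF-β arrays grouped by the sample labels. The authors deposited for each array the scanner's intensity of every spot (median brightness with a local background, linear and not normalized; 3D-Gene Extraction software) and a table of normalized intensity with each array's median at 25. Versions and the rule for listing a miRNA are not given in the sources used here.

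From the scanner intensity, the mean of 229 blank spots was subtracted, 0 to 2 human probes per array flagged as failed were set to missing, arrays were scaled to a median of 25 over 292 commonly detected probes, each signal under the detection limit (2 SD) was replaced by the array's lowest detected one, and log2 was taken. Brightness over the blank spots and the number of arrays limit the precision. Changes and standard errors came from limma 3.58.1 (lmFit, eBayes) in R 4.3.3 over 323 expressed miRNAs, with Benjamini-Hochberg adjustment, after the step had been tested on simulated data. The thresholds were 0.05 for the adjusted p and 1.5 and 0.67 for ratios.

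The members, lists and rules were chosen with earlier results of these data known. Named miRNAs are the members, the other miR-181 arms, seed relatives, the 5 most correlated with each expressed member, rank neighbours, and the 2 highest and 2 lowest of each TGF-β list. Seeds, positions and sequences are from RefSeq.

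Array signals correlated by 0.945 to 0.985 (Pearson, across miRNAs), so that no arrays were copies. The replicate numbers come from the labels, which do not say what they mark. Deviations from the group means of same-numbered arrays correlated by 0.12, 0.24 and 0.33 over 322 miRNAs. Arrays with different numbers were not compared, so that these values do not show a pairing. A pairing was assumed only for the replicate block, which is an alternative. The other alternatives were normexp and local background, 4 other normalizations, 2 filters, no lowest value, chip, single arrays left out, the methods' t-test, trend and robust eBayes and, chosen after the data were seen, no scaling.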

Additional observations from a re-analysis of the deposited data

How the results depend on the processing

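The log2 changes of miR-181a-5p and miR-181b-5p were above 0 in all 19 other settings in which each was computed. Of these, 13 for miR-181a-5p and 15 for miR-181b-5p moved by less than the pooled SD within groups. The other values were 0.19 and 0.16 under normexp (offset 50), 2.74 and 2.48 with local background (standard errors 2.84 and 1.68), 0.51 and 0.51 in the authors' values, and 1.41 and 1.41 with no scaling. For miR-181a-5p they were also 0.55 with scaling by own detected probes and 0.66 at the 75th percentile. The counts of 13 and 15 include settings that could not move the members by construction. Under both detection filters, no lowest value and the replicate block, each member kept its 0.77. Chip as a block and chip 1 alone gave a single value per member (0.84 and 0.95) but were counted separately. The counts therefore do not measure how stable the rise was. An offset in normexp makes ratios of dim probes smaller by its construction, but this setting also used the local background. The part of each in the lower values was not tested. A scaling by 1 factor per array moves the changes of all miRNAs alike. For the other settings the cause was not tested. With single arrays left out, the changes ran from 0.72 to 0.83 for miR-181a-5p and from 0.68 to 0.90 for miR-181b-5p. The groups of both did not overlap in any of these 6 cases. Within a single case, 28 to 54 of the 323 miRNAs had TGF-β above all controls, and how many did so in all 6 was not counted. The groups of both members overlapped with normexp, where the ratios were 1.16 and 1.12, and with local background. They also overlapped in the authors' values and with own detected probes, and for miR-181b-5p with no scaling.

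Pairing by replicate number (the replicate block) left the log2 changes at 0.77 and 0.77, with standard errors of 0.21 and 0.21, and 0 miRNAs past the adjusted p in limma (31 at an unadjusted p under 0.05); it changed no call. The count past the adjusted p was 0 in every other limma setting except without TGF-β array 3, where it was 1 (miR-629-5p, named after its value was seen; limma adjusted p = 0.022), and with arrays left out it ran from 0 to 1. The methods' t-test gave 1.

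The count of ratios above 1.5 was 15 of 323. It was 23 of 322 with normexp, 99 of 323 with local background and 5 of 349 for the authors' values. It was 6 of 323 for scaling by own detected probes and 7 of 323 at the 75th percentile. With detection on at least 1 array it was 26 of 508, and with no scaling 221 of 323. With arrays left out it ran from 11 to 27, the 27 without control array 2, and 23 when TGF-β array 1 was left out. The count of miRNAs with TGF-β above all controls was 23, and in order 7, 9, 1, 1 and 12 in the first 5 of these settings, and 114 on chip 1 alone. With arrays left out it ran from 28 to 54, with 41 when control array 2, 53 when TGF-β array 1 and 54 when TGF-β array 3 was left out, by construction, since fewer arrays overlap less often. The signal over background limits all statements on the 4 members that were not expressed.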

Other observations

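The local background that the scanner output gives beside each spot followed the brightness of the spot itself. Over detected probes its log2 value correlated with that of the spot by 0.94 to 0.99 within arrays (Pearson, across probes, which are not independent replicates), and it was at or above the spot for 2.86% to 27.7% of them. For miR-181a-5p it was at or above the spot on 3 of the 6 arrays, at 95.0 against 90.9 on control array 1, 202.4 against 157.3 on control array 2 and 375.4 against 321.8 on TGF-β array 2. For miR-181b-5p this held on 1 array, control array 1, at 43.4 against 42.7. Its part in the wide spread of the values with local background was not tested.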
